A study of Mus musculus with 93 samples.

Results

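The 33 genes described here encode proteins of the synaptic vesicle and of the machinery that fuses it with the cell membrane, and they were followed over 5 stages of olfactory neuron development. They were chosen by symbol from the gene annotation that goes with the expression table: 33 of 32640 symbols, held in 34 of 32975 entries, because Pclo has 2 entries. The members fall into SNARE proteins (Snap25, Vamp1, Vamp2, Stx1a), synaptotagmins (Syt1, Syt2, Syt4, Syt5, Syt7, Syt11), vesicle membrane proteins (Syp, Sypl, Sv2a, Sv2b, Sv2c), synapsins (Syn1, Syn2, Syn3), complexins (Cplx1, Cplx2), Rab3 and active zone genes (Rab3a, Rab3b, Rims1, Rims2, Bsn, Pclo, Unc13a, Unc13b), vesicular glutamate transporters (Slc17a6, Slc17a7) and genes of SNARE disassembly (Nsf, Napa, Napb).

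Cells of the dissociated olfactory epithelium were collected singly by hand from C57BL/6 mice, for which the labels name no transgene, treatment or age. The first stage, Progenitor, holds 11 cells and the next, Precursor, holds 9; then come Early Immature Neuron with 27 cells, Late Immature Neuron with 13 and, last, Mature Neuron with 25, and 8 of these 85 cells had a repeat library. The study asked how odorant receptor genes are expressed during development. Since libraries are single cells and animals are not named, a stage is treated as a single sample without a test, and every SD printed describes cells, not animals. How each cell got its stage is not told in the labels.

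A transmitter vesicle fuses when a vesicle SNARE (synaptobrevin, encoded by Vamp genes) zips together with 2 SNAREs of the cell membrane, syntaxin and SNAP-25. Synaptotagmins sense the calcium that triggers fusion, complexins clamp and assist it, Munc13 proteins (Unc13 genes) prime vesicles, and Rab3, RIM, Bassoon and Piccolo hold them at the active zone. After fusion, NSF and its SNAP adaptors (Napa, Napb) pull the spent SNARE complex apart. Olfactory sensory neurons are born throughout life and release glutamate from axon terminals in the olfactory bulb. RNA of these genes is read here in the cell body, and RNA does not show that a synapse had formed.

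Expression is given as FPKM, fragments scaled by transcript length and library size, so levels of different genes are compared per length. A gene was counted as detected at an FPKM of at least 1. Judged from the steps between low values, 1 FPKM on a 1 kb transcript was worth between 0.556 and 9.83 fragments depending on the library, with stage medians of 4.19 to 6.85. Gapdh and Eef1a1, which every cell uses, were at 0 in none of the 85 cells. The mitochondrial share of summed FPKM was lowest in Precursor cells (median 37.4%) and highest in Mature Neuron cells (67%). All 13 genes on a list of mature neuron markers were detected in at least 50% of Late Immature Neuron cells, against 0 of 13 in Progenitor cells. S100a9, a neutrophil gene, reached an FPKM of 100 in 8 of 11 Progenitor cells, in the Precursor cell D179 and in no later cell. Of a list of 12 blood and immune genes, 7 were detected in some Progenitor cell and 5 in at least 50% of Progenitor cells. Their summed FPKM ran from 0 to 771. The haemoglobin genes Hbb-bs, Hbb-bt and Hba-a1 were at 0 in every Progenitor cell, while Hba-a2 was above 0 in some. The sustentacular genes Cbr2 or Cyp2g1 reached an FPKM of 100 in 28 cells, 15 of them Mature Neuron cells. Of a list of 10 sustentacular genes, 7 were detected in at least 50% of Progenitor cells and 3 in at least 50% of Mature Neuron cells. The counts were 0 in Precursor, 0 in Early Immature Neuron and 1 in Late Immature Neuron cells. The median summed FPKM of the 10 genes was nevertheless highest in Mature Neuron cells. Cell names carry numbers in 4 separate ranges. Only D316 to D434 covers all 5 stages, with 3, 5, 19, 6 and 4 cells, and 8 of the 11 Progenitor cells are numbered D168 to D205. What these ranges stand for is not told in the labels.

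The number of release genes per cell was lowest in Progenitor and highest in Late Immature Neuron cells. A median of 6 of the 33 genes was detected per Progenitor cell (2 to 13), 10 per Precursor cell (3 to 19), 14 per Early Immature Neuron cell (6 to 23), 19 per Late Immature Neuron cell (13 to 25) and 14 per Mature Neuron cell (10 to 21). Summed over the 33 genes, median FPKM was 171.5, 200.6, 1008, 1767 and 1753 from the first stage to the last. The number of members was thus highest in Late Immature Neuron cells, while the summed level was alike there and in Mature Neuron cells. All genes together gave medians of 4788, 3876, 4123, 4525 and 3534 detected per cell in the same order. The 8 Progenitor cells numbered D168 to D205 are the same 8 that were high in S100a9, so number range and S100a9 cannot be told apart there, and 3 Progenitor cells are outside both. Within D316 to D434, the medians were 8, 9, 13, 19.5 and 18.5 members per cell, so that the first and the last step were small in that range.

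**Figure D1:**
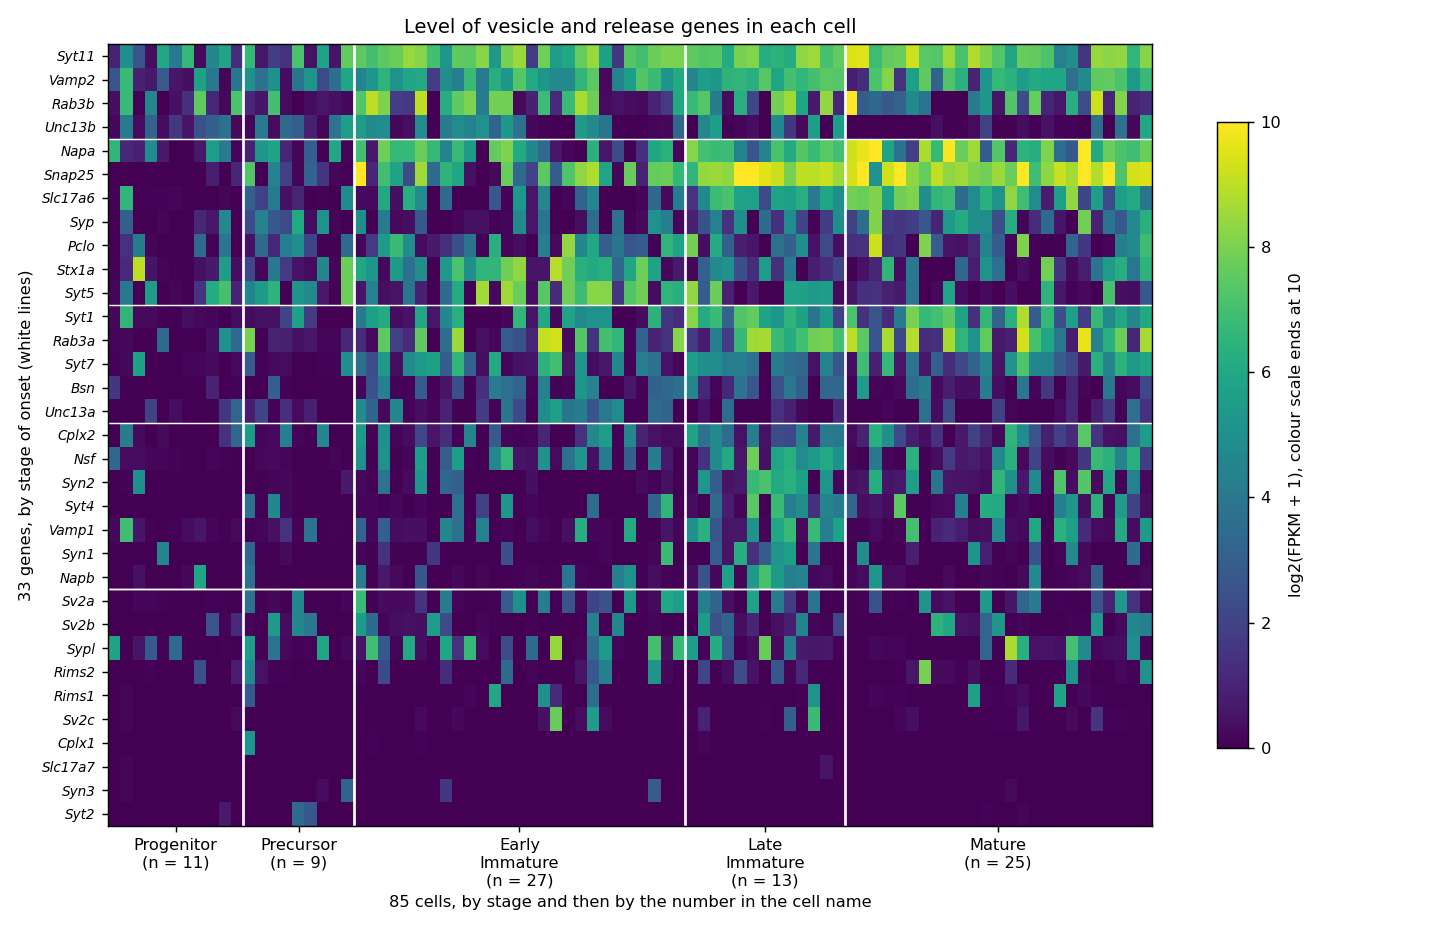
Heat map of log2(FPKM + 1) for the 33 genes (rows, grouped by stage of onset) in 85 cells (columns, grouped by stage and ordered by the number in the cell name). Syt11 and Vamp2 are filled in most cells of all stages, Snap25 turns bright from Early Immature Neuron cells on, and Cplx1, Slc17a7, Syn3 and Syt2 stay dark almost throughout.

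Snap25, the membrane SNARE of neurons, covered the widest span. In Progenitor cells it ran from 0 to 1.08 FPKM with a median of 0, and it was listed at 0 in 9 of 11 cells. In Precursor cells it ran from 0 to 154 with a median of 1.93 FPKM. Early Immature Neuron cells held from 0 to 1220 with a median of 57.3 FPKM, Late Immature Neuron cells from 95.6 to 1918 with a median of 512 FPKM, and Mature Neuron cells from 32.1 to 4530 with a median of 399 FPKM. No Progenitor cell reached the lowest Late Immature or Mature Neuron cell, whereas Early Immature Neuron cells ran from 0 into the range of the later stages, but not to its top. As mean log2(FPKM + 1), its level from first stage to last was 0.17 ± 0.38 (SD over cells), 2.08 ± 2.49, 5.04 ± 3.2, 8.87 ± 1.05 and 8.84 ± 1.52. The difference between Progenitor and Mature Neuron cells was 8.67 log2 units, and 8.38 within the cells numbered D316 to D434.

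Vamp2, the synaptobrevin of most central synapses, was present from the start. It was detected in 6 of 11, 8 of 9, 26 of 27, 13 of 13 and 23 of 25 cells from the first stage to the last, with median FPKM of 5.07, 13.4, 39.5, 94.4 and 58.7. Its mean log2 level went from 2.60 ± 2.28 (SD) in Progenitor to 6.43 ± 0.89 in Late Immature Neuron cells. Vamp1, its close relative, was detected in 1, 2, 7, 9 and 9 cells from the first stage to the last, and its median reached 31.6 FPKM only in Late Immature Neuron cells. In the 77 cells with either gene, Vamp2 was the higher in 67. Both were detected in 9 of 13 Late Immature Neuron cells, and, over all stages, of the 28 cells with Vamp1, 27 also held Vamp2.

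Stx1a, the syntaxin of the same complex, followed another course. It ran from 0 to 475 FPKM with a median of 55.4 in Early Immature Neuron cells and from 0 to 43.3 with a median of 3.15 in Late Immature Neuron cells. The ranges overlap, but 20 of 27 Early Immature Neuron cells were at 10 FPKM or more, against 4 of 13 Late Immature Neuron cells. On the log2 scale the mean was 4.91 ± 2.78 (SD) and then 2.47 ± 1.88, a difference of -2.44, and -3.75 within the cells numbered D316 to D434. In Mature Neuron cells the mean was 2.50 ± 2.61, with 13 of 25 cells at an FPKM of at least 1. Within D316 to D434, Mature Neuron cells (n = 4) were 3.93 above Late Immature Neuron cells (n = 6), and within D213 to D274 they were -1.60 apart, so the last step of Stx1a had no common direction. Snap25, Stx1a and a Vamp gene were detected together in 0 of 11, 4 of 9, 15 of 27, 10 of 13 and 13 of 25 cells from the first stage to the last.

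Among the synaptotagmins, Syt11, a form that lacks the residues for calcium binding, had the highest level from Early Immature Neuron cells on. It was detected in 8 of 11 Progenitor and 6 of 9 Precursor cells and in all 65 later cells. Its median went from 16.3 and 2.49 FPKM in the first 2 stages to 183.6, 168.5 and 191 FPKM. The mean log2 level was 3.57 ± 3.13 (SD) in Precursor and 6.90 ± 1.79 in Early Immature Neuron cells, a difference of 3.33, which was 2.39 within D316 to D434 and 4.73 within D168 to D205. In Late Immature and Mature Neuron cells it stood at 7.31 ± 0.83 and 7.37 ± 1.75. Syt11 thus reached its later level 1 stage before Snap25 did.

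Syt1, the fast calcium sensor of release in the forebrain, came later. It ran from 0 to 95.4 with a median of 2.07 FPKM in Early Immature Neuron cells, from 2.71 to 288 with a median of 54.5 FPKM in Late Immature Neuron cells and from 1.26 to 442 with a median of 53.0 FPKM in Mature Neuron cells. It was detected in 15 of 27 Early Immature Neuron cells and in each of the 38 later cells. The mean log2 level went from 2.89 ± 2.71 (SD) to 5.67 ± 1.81 between the immature stages, a difference of 2.78, and 2.14 within D316 to D434. Syt11 was above Syt1 in all 27 Early Immature Neuron cells, in 11 of 13 Late Immature Neuron cells and in 21 of 25 Mature Neuron cells. Syt2, the fast sensor of hindbrain and spinal synapses, was detected in only 2 cells, both Precursor, at up to 9.62 FPKM, and in 0 of 25 Mature Neuron cells, which allows a share of up to 12%, taken as 3 counts of the total and not as a Clopper-Pearson bound.

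Syt7, a slow, high-affinity sensor, was detected in 1, 2, 16, 11 and 19 cells from the first stage to the last, with medians of 7.78, 16 and 12.9 FPKM in the last 3 stages. Syt5, which is found on dense core vesicles, went the other way late on. It was detected in 6 of 9 Precursor cells and in 18 of 27, 7 of 13 and 7 of 25 cells of the 3 later stages, with medians of 26.4, 19.4, 6.76 and 0.332 FPKM. Its difference between Late Immature and Mature Neuron cells was -1.98, but 0.75 within D213 to D274. Syt4, a synaptotagmin linked to dense core vesicles and regulated secretion, was detected in 8 of 13 Late Immature Neuron cells at a median of 10.1 FPKM, and in 6 of 27 cells in the stage before.

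The vesicle membrane genes did not share a course. Syp (synaptophysin), a common marker of vesicles, was detected in 3 of 11, 6 of 9, 9 of 27, 10 of 13 and 21 of 25 cells from the first stage to the last. Its median stayed low, at 5.75 FPKM in Mature Neuron cells, where it ran from 0.0511 to 273 FPKM. Of its exon bases, 33% overlap an exon of Gm14703 on the opposite strand, and the kit named in the labels does not mark strand, so reads of the pair cannot be told apart. Sypl (synaptophysin-like protein), which is also found outside neurons, was detected in 24% to 48.1% of the cells of each stage and never in 50%. Sv2a was detected in 12 of 27 Early Immature Neuron and 8 of 25 Mature Neuron cells, Sv2b in 6 and 7, and Sv2c in 2 and 1. Which of the 3 Sv2 genes, encoding glycoproteins of the vesicle membrane, had the highest mean in Late Immature and in Mature Neuron cells changed with the setting.

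The synapsins, phosphoproteins that tether vesicles in the reserve pool, appeared late. Syn2 was detected in 1, 0, 4, 8 and 10 cells from the first stage to the last, and its median was 37.3 FPKM in Late Immature Neuron cells and 0.537 in Mature Neuron cells. Syn1 was detected in 1, 1, 4, 7 and 5 cells in the same order, and Syn3 in 3 cells in all, none of them Late Immature or Mature. Syn2 went, in mean log2 level, from 0.65 ± 1.42 (SD) to 3.61 ± 2.91 between the immature stages, a difference of 2.96, and 3.69 within D316 to D434. Syn2 led its family in Late Immature and Mature Neuron cells under all 6 ways of ranking tried. Of the 10 Late Immature Neuron cells with Syn1 or Syn2, Syn2 was the higher in 7, and 5 held both.

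Complexins and glutamate transporters were the plainest cases of a single paralog. Cplx2 was detected in 3 of 11, 3 of 9, 11 of 27, 10 of 13 and 15 of 25 cells from the first stage to the last, with a median of 12.6 FPKM in Late Immature and 1.72 FPKM in Mature Neuron cells. Cplx1 was detected in 1 of 85 cells, the Precursor cell D178 at 35.3 FPKM, and in 0 of 38 Late Immature and Mature Neuron cells. That Precursor cell also held Cplx2, at 45.1 FPKM. Cplx2 was the higher in all 42 cells with either gene.

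Slc17a6 (VGLUT2) loads vesicles with glutamate. It was detected in 1 of 11, 5 of 9, 11 of 27, 13 of 13 and 24 of 25 cells from the first stage to the last. It ran from 0 to 75.8 with a median of 0.231 FPKM in Early Immature Neuron cells, from 1.87 to 138 with a median of 51.2 FPKM in Late Immature Neuron cells and from 0.741 to 331.5 with a median of 49.3 FPKM in Mature Neuron cells. Its mean log2 levels in these stages were 1.89 ± 2.27 (SD), 5.14 ± 1.64 and 5.76 ± 2.06. The difference between the immature stages was 3.25, and 3.91 within D316 to D434. Slc17a7 (VGLUT1), its paralog, was detected in 0 of 85 cells, which allows a share of up to 3.53% by the same 3 counts, and its highest value was 0.454 FPKM. Among the 85 cells, 17 held Snap25 without Slc17a6, 12 of them Early Immature Neuron cells, and 5 held Slc17a6 without Snap25. Snap25, a Vamp gene, Syt1 and Slc17a6 were found together in 0 of 11, 0 of 9, 9 of 27, 13 of 13 and 22 of 25 cells from the first stage to the last.

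The promoters of the transporter pair are shown because 1 paralog was in nearly every late neuron and the other in no cell. Slc17a6 has 2 promoter entries, and the one at its annotated gene start is shown. Sequences are RefSeq's, on GRCm38.p6, the assembly that mm10 denotes, and run 5′ to 3′ from 250 bases before to 50 bases after the start of transcription.
Slc17a6, chr7:51621580-51621879, plus strand: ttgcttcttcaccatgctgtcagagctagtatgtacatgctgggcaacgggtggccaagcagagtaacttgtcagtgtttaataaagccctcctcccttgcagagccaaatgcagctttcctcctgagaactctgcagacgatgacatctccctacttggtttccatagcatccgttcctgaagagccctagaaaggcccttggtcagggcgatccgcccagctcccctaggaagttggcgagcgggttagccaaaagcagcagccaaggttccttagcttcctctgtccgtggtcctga
Slc17a7, chr7:45163671-45163970, plus strand: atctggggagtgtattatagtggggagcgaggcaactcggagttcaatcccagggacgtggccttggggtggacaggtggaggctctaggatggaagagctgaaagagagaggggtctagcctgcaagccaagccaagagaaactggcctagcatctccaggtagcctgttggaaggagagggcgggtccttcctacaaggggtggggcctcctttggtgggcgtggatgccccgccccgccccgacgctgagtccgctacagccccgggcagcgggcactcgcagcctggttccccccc
The Slc17a6 stretch holds 53.7% G and C with 8 CpG pairs, and the Slc17a7 stretch 63.7% with 13. Promoters were found for 26 of the 33 members, 35 promoters in all. On both strands, the palindrome recognised by the EBF factors of olfactory neurons was in 0 of these 35 and in 0.904% of 32851 promoters of all genes. The cAMP response element TGACGTCA was in 2 of 35, at Napa and Syn1, and in 1.79% of all promoters. TTCAGCACC, the first part of the site bound by the repressor REST, was searched after other results were known; it was in 2 of 35, at Syn1 and Unc13a, and in 0.371% of all promoters. In the Napa and Syn1 promoters below, capitals mark these letters.
Napa, chr7:16098330-16098629, plus strand: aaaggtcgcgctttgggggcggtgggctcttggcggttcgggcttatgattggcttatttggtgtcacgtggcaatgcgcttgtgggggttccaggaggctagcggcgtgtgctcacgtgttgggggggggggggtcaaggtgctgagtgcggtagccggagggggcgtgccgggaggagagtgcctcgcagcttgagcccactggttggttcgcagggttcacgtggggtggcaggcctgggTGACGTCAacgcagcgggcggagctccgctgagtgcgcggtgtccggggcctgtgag
Syn1, chrX:20920869-20921168, minus strand: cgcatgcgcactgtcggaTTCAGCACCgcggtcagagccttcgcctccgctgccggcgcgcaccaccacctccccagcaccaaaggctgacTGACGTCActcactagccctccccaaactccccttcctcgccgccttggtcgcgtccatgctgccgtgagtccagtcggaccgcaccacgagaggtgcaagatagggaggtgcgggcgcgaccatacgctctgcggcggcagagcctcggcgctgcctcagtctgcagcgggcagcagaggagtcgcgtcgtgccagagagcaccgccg
The element begins 7 bases before the start in Napa and 159 before it in Syn1, where TTCAGCACC lies further upstream. These starts lie 122 bases (Napa) and 86 bases (Syn1) downstream of the gene starts in the deposited annotation. By that annotation, the Napa element lies inside the gene. Rest itself was detected in 2 of 11 Progenitor cells and in 1 Early Immature Neuron and 1 Mature Neuron cell. A match is a run of letters, not a shown binding site.

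**Figure D2:**
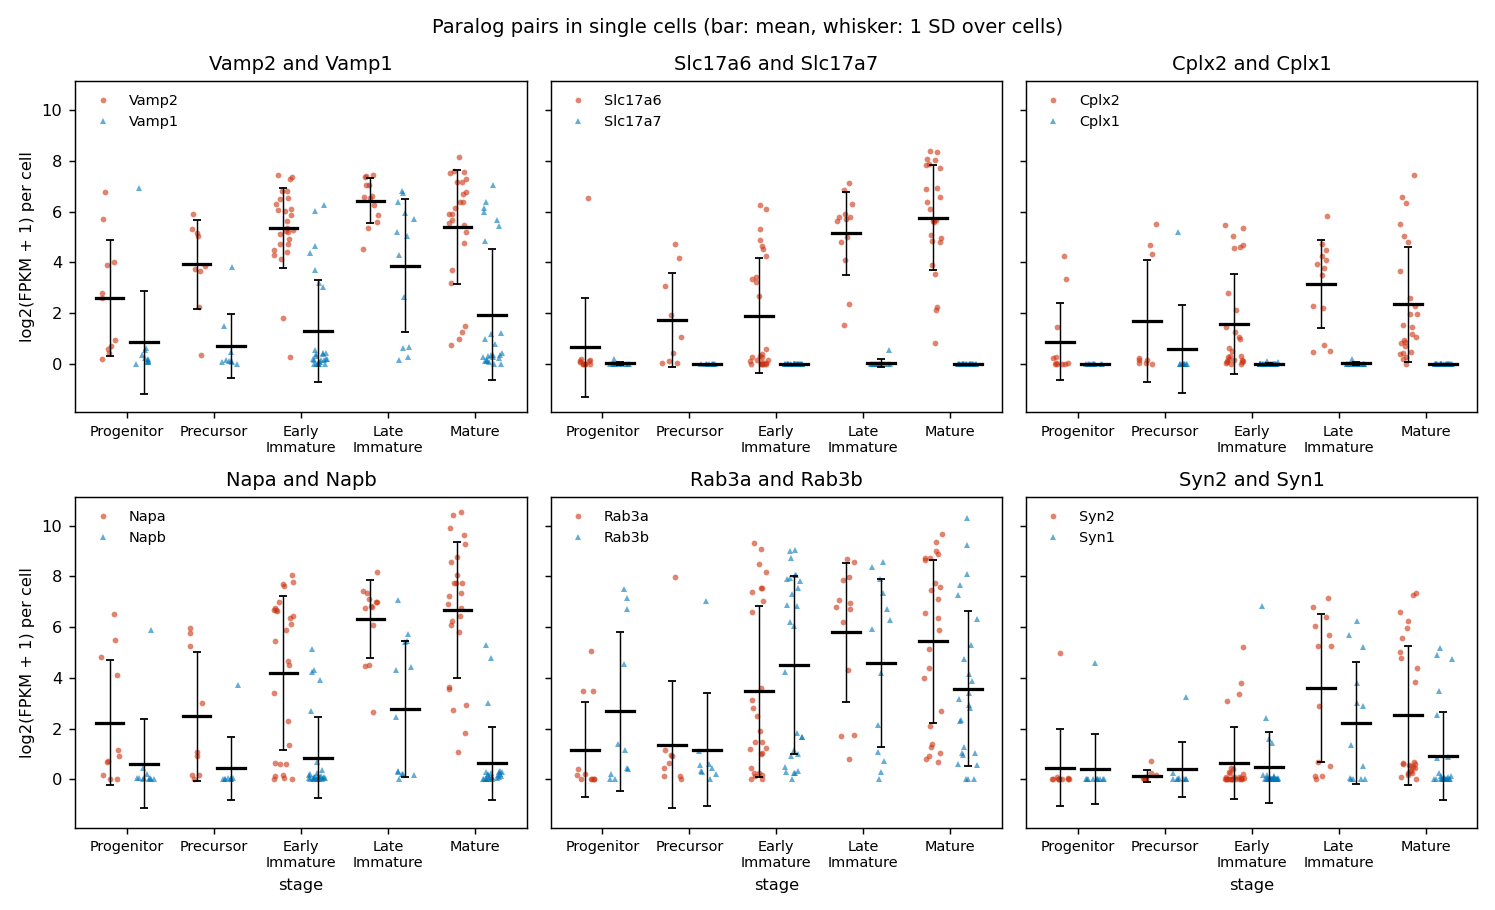
Level of 6 paralog pairs in single cells as log2(FPKM + 1), by stage; each point is 1 cell, bars are means and whiskers 1 SD over cells. Slc17a7 and Cplx1 lie at or near 0 in nearly all cells, Vamp2 and Napa lie above Vamp1 and Napb on average in all stages, and Rab3a and Rab3b overlap.

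The small GTPases Rab3a and Rab3b, which sit on vesicles before fusion, changed order. In Early Immature Neuron cells Rab3b ran from 0 to 523 with a median of 65.8 FPKM, and Rab3a from 0 to 639 with a median of 2.74 FPKM. In Mature Neuron cells Rab3b ran from 0 to 1260 with a median of 6.65 FPKM, and Rab3a from 0.598 to 816 with a median of 81.5 FPKM. Rab3b had the higher mean in Early Immature Neuron cells and Rab3a in the 2 later stages under all 6 rankings. Cell by cell the order was loose: Rab3a was the higher in 10 of 25, 8 of 13 and 15 of 24 cells of the 3 later stages with either gene, and in only 3 of 7 cells with repeat libraries was the leader the same in both. The means of the pair lay within 1 SD of each other in every stage. The mean log2 level of Rab3a went from 1.37 ± 2.52 (SD) in Precursor to 3.47 ± 3.36, 5.80 ± 2.74 and 5.45 ± 3.22 in the later stages.

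Active zone genes had low values per length. Some are long: the longest transcript has 15938 bases for Bsn, 16846 for Pclo and 10255 for Unc13a, against 2116 for Snap25. The cDNA was primed with oligo(dT), and whether such length lowered the FPKM of these genes was not tested. Bsn (Bassoon), a scaffold, was detected in 14 of 27, 10 of 13 and 9 of 25 cells of the 3 later stages, with medians of 1.62, 5.33 and 0.278 FPKM. Rims1 and Rims2, scaffolds that tie calcium channels to vesicles, were detected in 8 and 16 of 85 cells and reached 50% of cells in no stage. Unc13a (Munc13-1) was detected in 15 of 27 Early Immature Neuron cells but in 3 of 13 Late Immature and 7 of 25 Mature Neuron cells. Its mean log2 level of 2.2 ± 2.01 (SD) in Early Immature Neuron cells was followed by 0.62 ± 1.0, a difference of -1.59, and -1.71 within D316 to D434. Unc13b (Munc13-2) was detected in 6 of 11 Progenitor, 5 of 9 Precursor and 15 of 27 Early Immature Neuron cells, and in 4 of 25 Mature Neuron cells.

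Pclo (Piccolo) showed 2 courses in its 2 entries. The protein-coding entry, on mm10 at chr5:14514918-14859115, was detected in 4 of 11, 5 of 9, 15 of 27, 2 of 13 and 4 of 25 cells from the first stage to the last. The other, an entry of 1 exon typed as lincRNA at chr5:14861407-14863459, starts 2291 bases beyond its end on the same strand and was detected in 0, 1, 11, 7 and 13 cells. With the higher entry taken, Pclo was 1.37 higher in Mature Neuron than in Progenitor cells; with the protein-coding entry alone it was -0.69 apart. From Early to Late Immature Neuron cells the difference was -0.48 with the higher entry and -1.15 with the protein-coding entry alone. Whether the second entry holds the end of the same transcript was not tested.

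Genes of SNARE disassembly split by adaptor. Napa (alpha-SNAP) was detected in 5 of 11 Progenitor, 5 of 9 Precursor, 19 of 27 Early Immature Neuron and all 38 later cells. It ran from 0 to 91.1 with a median of 0.887 FPKM in Progenitor, from 5.29 to 291 with a median of 114 FPKM in Late Immature Neuron and from 1.12 to 1501 with a median of 147 FPKM in Mature Neuron cells. The mean log2 level was 2.24 ± 2.47 (SD) in Progenitor and 6.68 ± 2.68 in Mature Neuron cells, a difference of 4.44, and 4.14 within D316 to D434. Napb (beta-SNAP), the neuron-enriched adaptor, was detected in 1, 1, 5, 7 and 3 cells from first to last stage. Its median was 4.55 FPKM in Late Immature Neuron cells and at most 0.0863 FPKM in each other stage. Napa was above Napb in 64 of the 71 cells with either gene, including all 25 Mature Neuron cells.

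Nsf, the ATPase they recruit, was detected in 13 of 27, 10 of 13 and 12 of 25 cells of the 3 later stages, with medians of 0.671, 31.1 and 0.734 FPKM. Its mean log2 level went from 2.37 ± 2.40 (SD) to 4.21 ± 2.58 and back to 2.25 ± 2.54. The later difference, -1.96, was -1.68 within D213 to D274 and -0.81 within D316 to D434. Nsf and Napa were detected together in 12 of 25 Mature Neuron cells.

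**Figure D3:**
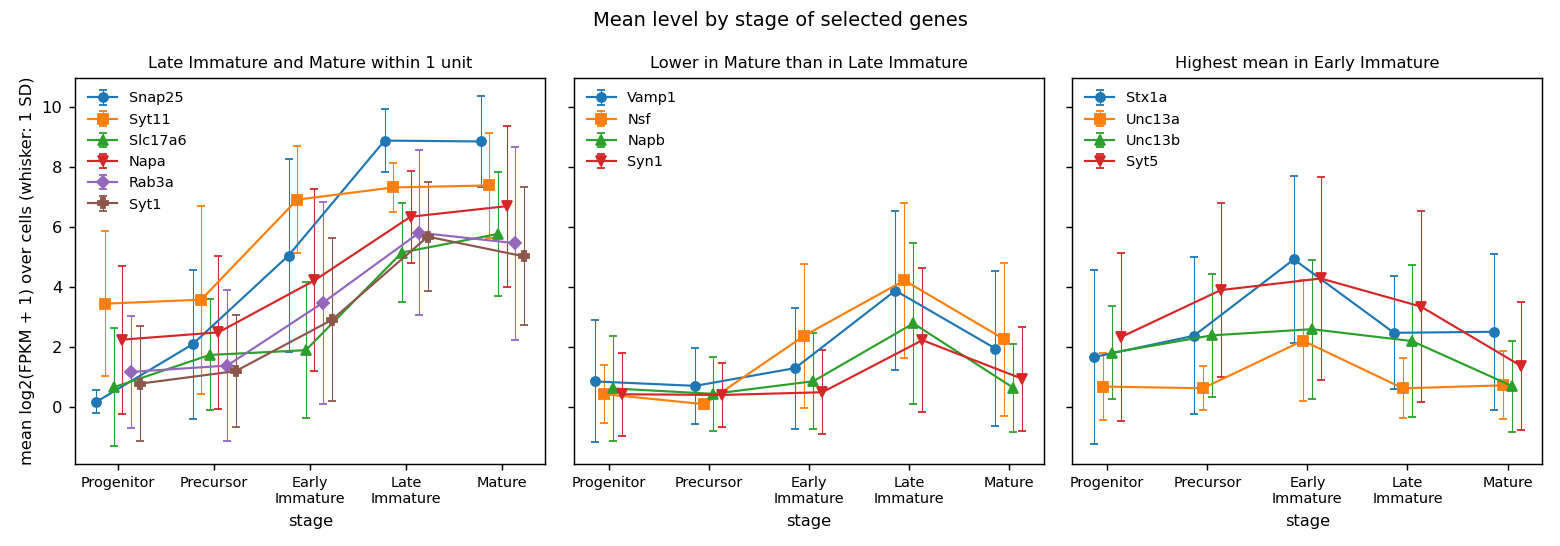
Mean log2(FPKM + 1) by stage with whiskers of 1 SD over cells, for genes whose Late Immature and Mature Neuron means lay within 1 unit (left), for genes with a lower mean in Mature Neuron cells (centre) and for genes with their highest mean in Early Immature Neuron cells (right). Snap25 and Syt11 end highest, Nsf and Vamp1 peak in Late Immature Neuron cells, and Stx1a peaks 1 stage earlier.

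Onset was taken as the first stage in which at least 50% of the cells held the gene. Of the 33 members, 4 had it in Progenitor (Vamp2, Syt11, Rab3b, Unc13b), 7 in Precursor (Snap25, Stx1a, Syt5, Syp, Pclo, Slc17a6, Napa), 5 in Early Immature Neuron (Syt1, Syt7, Rab3a, Bsn, Unc13a) and 7 in Late Immature Neuron cells (Vamp1, Syt4, Syn1, Syn2, Cplx2, Nsf, Napb). None had it in Mature Neuron cells, and 10 had none (Syt2, Sypl, Syn3, Sv2a, Sv2b, Sv2c, Cplx1, Rims1, Rims2, Slc17a7). Among the 5756 genes with an onset, the shares were 61.6%, 13.4%, 9.31%, 13.8% and 1.79%, and the first of these stands beside 4 of the 23 members with an onset in Progenitor cells. Not all members with an early onset had high values there: Slc17a6 was in 5 of 9 Precursor cells at a median of 1.07 FPKM and in 40.7% of cells in the next stage. At an FPKM of at least 5, the onset of Snap25 and Stx1a moved to Early Immature Neuron and that of Slc17a6 and Syt1 to Late Immature Neuron cells. Vamp2 and Syt11 stayed in Progenitor and Syt5 in Precursor cells. Shares of 9 cells are coarse: 5 of 9 has a Clopper-Pearson 95% interval of 21.2% to 86.3%, which covers counting error only.

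By stage from first to last, 4, 10, 14, 21 and 13 members were present in 50% or more of the cells. The shares of all 32640 genes that did so were 10.9%, 9.87%, 9.0%, 11.1% and 7.67%. In the D316 to D434 range the counts were 10, 5, 13, 23 and 23, beside 12.9%, 9.79%, 8.71%, 14.4% and 14.5% of all genes. Leaving out the cells high in S100a9 keeps the same 3 Progenitor cells as that range and is no separate check of their count. The low count in Progenitor cells thus did not hold in these 3 cells, and in its 4 Mature Neuron cells the count equalled that of Late Immature Neuron cells. Snap25, Syt1, Syt11 and Napa were detected in each of the 38 Late Immature and Mature Neuron cells, as were 330 genes, or 1.01% of all.

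**Figure D4:**
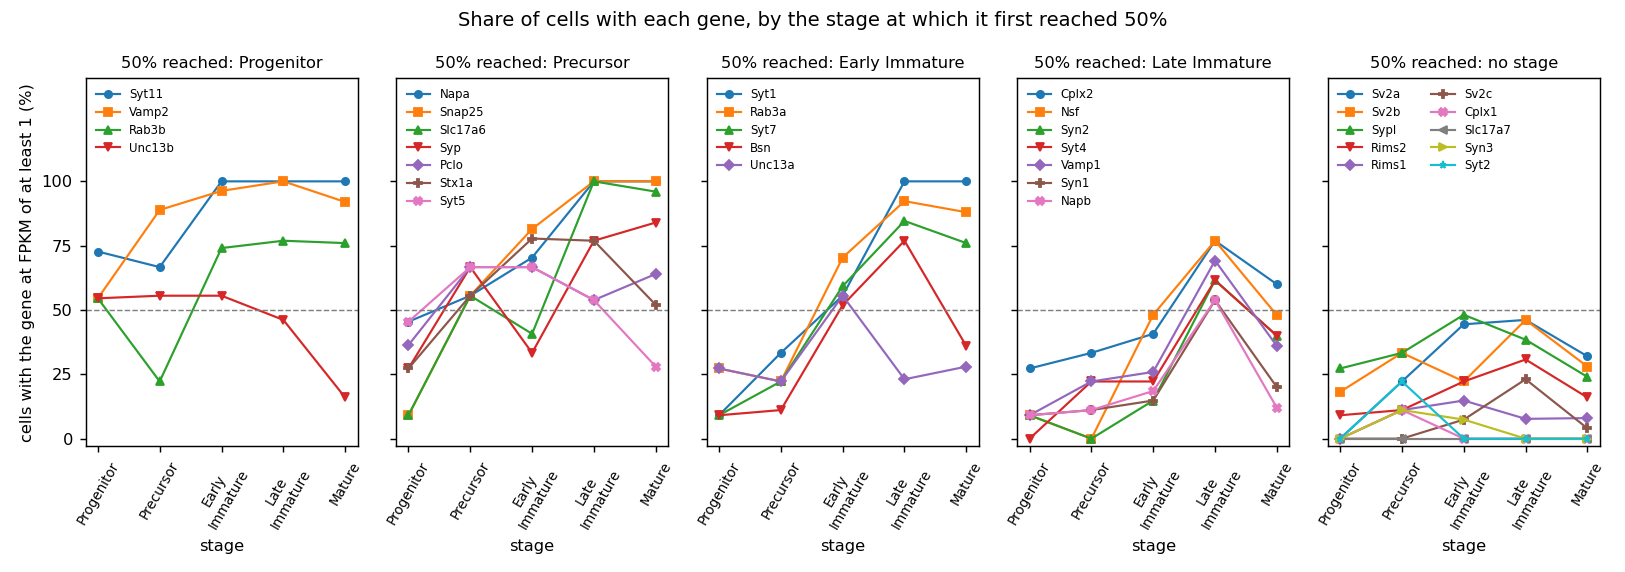
Percentage of cells with each gene at an FPKM of at least 1 by stage, in 5 panels by the stage at which 50% (dashed line) was first reached. Of the 796 genes with onset in Late Immature Neuron cells, 91.2% had a lower share in Mature Neuron cells, as did the 7 members with that onset, a drop that the choice by onset favours, while Snap25, Napa and Syt1 were at 100% in both.

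For each pair of stages, genes detected in 50% or more of the cells on either side were compared, and a gap of 1 or more between the means of log2(FPKM + 1) was called. From Progenitor to Precursor cells, 11 of 33 members passed that filter, 6 were called higher and 1 lower, against 20.1% higher and 21.6% lower, or 41.7% in either direction, of 4321 genes. The higher ones were Snap25 (1.91), Syp (1.72), Syt5 (1.57), Vamp2 (1.32), Slc17a6 (1.08) and Pclo (1.0), and Rab3b was lower (-1.51). This step changed with the cells used. In the D316 to D434 range (3 and 5 cells), 1 of 11 members was higher and 5 were lower, against 20.5% and 37.2% of all genes. Without the cells high in S100a9, which sets the same 3 Progenitor cells against 8 Precursor cells, 3 of 15 were higher and 5 lower, against 19.8% and 34.8%. Syt5 was then lower, by -1.03 and -1.04, and within D168 to D205 Rab3b was 0.28 higher. Among cells numbered D168 to D205 (8 and 3 cells), 8 of 13 members were higher and 0 lower, against 37.7% and 20.2% of all genes. Snap25 was 3.90, Syp 2.60 and Syt5 4.08 higher there. Within D316 to D434, Snap25 was 0.41 and Syp 0.54, and neither passed the filter. Vamp2 kept its direction, with 1.5 within D316 to D434 and 2.07 within D168 to D205. Without the Precursor cell D178, Snap25 was 1.26 higher and Slc17a6 0.91, and without D195 or D398 Slc17a6 was 0.77 or 0.70. Without the Progenitor cell D172 or D337, Stx1a was 1.44 or 1.1 higher. Pclo fell below 1 without any of 11 of the 20 cells, down to 0.66 without D319. With its protein-coding entry alone, Pclo was 0.53 higher and was not called.

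From Precursor to Early Immature Neuron cells, 16 members passed, 11 were called higher and 1 lower, against 22% and 28% of 4006 genes, or 50% in either direction. Syt11 (3.33), Rab3b (3.32), Snap25 (2.96), Stx1a (2.54), Rab3a (2.10), Syt7 (2.06), Napa (1.73), Syt1 (1.70), Unc13a (1.59), Bsn (1.55) and Vamp2 (1.44) were higher. Among cells numbered D316 to D434, 12 of 13 members were higher and 0 lower, against 24.9% and 33% of all genes. Among those numbered D168 to D205 (3 and 6 cells), 11 of 20 were higher and 3 lower, against 29.6% and 37% of all genes, with Vamp2 at 0.91, Bsn at 0.69 and Rab3a at 0.30. Syp was lower (-1.09), but -0.87, -0.66 and -0.78 without the Precursor cell D179, D319 or D374, and Vamp2 was 0.996 without D242.

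From Early to Late Immature Neuron cells, 23 members passed, 14 were called higher and 2 lower, against 32.5% and 16% of 4144 genes, or 48.6% in either direction. The median difference was 1.57 over these members and 0.41 over all genes tested. Snap25 (3.83), Slc17a6 (3.25), Syn2 (2.96), Syt1 (2.78), Vamp1 (2.58), Rab3a (2.33), Napa (2.12) and Syt4 (2.01) were at least 2 units higher. Napb (1.93), Nsf (1.84), Syn1 (1.73), Cplx2 (1.57), Vamp2 (1.08) and Syp (1.02) followed, and Stx1a (-2.44) and Unc13a (-1.59) were lower. Among cells numbered D316 to D434, 15 of 24 members were higher and 3 lower, against 41.6% and 14.2%. The call of Vamp2 was lost without any 1 of 5 cells, with 0.88 without D401 as the farthest, and without the cells high in Cbr2 or Cyp2g1 (0.96), and that of Syp without any 1 of 23, with 0.82 without D233.

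From Late Immature to Mature Neuron cells, 21 members passed, 0 were called higher and 8 lower, against 4.54% and 32.7% of 3835 genes, or 37.2% in either direction, so the share of members called lower was near that of all genes. Napb (-2.15), Syt5 (-1.98), Nsf (-1.96), Vamp1 (-1.93), Syn1 (-1.29), Syn2 (-1.09), Vamp2 (-1.05) and Rab3b (-1.0) were lower. The median was -0.79 over these 21 members and -0.58 over all genes tested. Once libraries were scaled to the same sum without mitochondrial and odorant receptor genes, the medians were -1.13 over 20 members and -1.03 over all genes. Snap25 (-0.03), Syt11 (0.07), Napa (0.35) and Slc17a6 (0.62) were above the median of all genes, and also with scaled values (-0.73, -0.61, -0.31 and -0.08). Snap25 was -1.11 within D213 to D274, where the median of all genes was -0.60, and Slc17a6 was -0.98 within D316 to D434, where it was 0.000365. In the D316 to D434 range (6 and 4 cells), 5 of 25 members were higher and 9 lower, against 25.2% and 27.6% of all genes, and Vamp2 was -0.15. Within D213 to D274 (4 and 16 cells), 2 of 20 were higher and 8 lower, against 11.9% and 37.5%. Vamp1 (0.58), Syt5 (0.75) and Rab3b (1.29) had the opposite direction in the latter. Without the cells high in Cbr2 or Cyp2g1, which leaves 9 Late Immature and 10 Mature Neuron cells, 6 of 21 were lower, against 37.1% of all genes. The calls of Vamp1 (-0.72), Vamp2 (-0.85) and Syn2 (-0.26) were then lost, Napb (-2.37) did not pass the filter, and Syt4 (-1.89) and Rab3a (-1.12) were called lower. Leaving out 1 cell at a time gave from 4 to 10 members lower. The call was lost without any 1 of 22 cells for Rab3b (-0.67 without D343), of 14 for Syn2 (-0.80 without D250), of 11 for Vamp2 (-0.86 without D29) and of 2 for Syn1 (-0.95 without D233).

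Between Progenitor and Mature Neuron cells, 14 members passed, 11 were called higher and 1 lower, against 25.2% and 46.3% of 4467 genes, or 71.5% in either direction. The largest differences after Snap25 were those of Slc17a6 (5.11), Napa (4.44), Rab3a (4.28), Syt1 (4.24), Syt11 (3.94) and Syt7 (2.99), followed by Vamp2 (2.78), Syp (2.50), Cplx2 (1.47) and Pclo (1.37). The call of Cplx2 was lost within D316 to D434 (0.90) and without the cells high in S100a9 (0.73). Unc13b was lower (-1.11), but 0.14 higher within D316 to D434, and its call was lost without any 1 of 4 Progenitor cells, with -0.88 without D170 as the farthest. These pairs share stages with the pairs above and are not independent of them.

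Relatives of the members were read from 8 lists of the same processes, as counts called from Progenitor to Mature Neuron cells. Of 15 other SNARE genes, 9 passed, 3 were higher and 2 lower. Stx7, an endosomal syntaxin, went from a mean log2 level of 0.69 ± 1.0 (SD) to 3.97 ± 3.03, and Ykt6 from 4.45 ± 2.52 down to 1.14 ± 1.63. Of 13 other SNARE regulators, 5 passed, 2 were higher and 2 lower. Of 22 other synaptotagmins and calcium sensors, 3 passed, 2 were higher (Sytl1 and Sytl2) and 1 lower (Esyt2).

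Of 23 other vesicle membrane genes, 7 passed and 3 were higher. Atp6v0c, a subunit of the vesicular proton pump, had a median of 209 FPKM in Progenitor and 463 FPKM in Mature Neuron cells, and Syngr1 (synaptogyrin) was detected in 0 of 11 Progenitor and 19 of 25 Mature Neuron cells. Of 19 other Rab and docking genes, 5 passed, 3 were higher and 1 lower, and Rogdi was detected in all 13 Late Immature Neuron cells at a median of 449 FPKM. Of 26 other active zone genes, 10 passed, 5 were higher and 2 lower. Rims3, a short relative of Rims1, was detected in 16 of 27 Early Immature Neuron and 16 of 25 Mature Neuron cells. Of 16 calcium channel genes, 2 passed and both were higher: Cacnb3, a beta subunit, had medians of 0.361 FPKM in Progenitor and 203.3 FPKM in Mature Neuron cells, and Cacna1h, a T-type channel, 0 and 19.9 FPKM. Of 34 vesicle recycling genes, 11 passed, 4 were higher and 4 lower, with Snap91, a clathrin adaptor of synapses, higher and Ap2m1, a general one, lower. The same pair gave 25.2% higher and 46.3% lower over all genes.

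Repeat libraries of the same cell set the scale of the technical error. Of 155 member values at an FPKM of at least 1 in either library of a cell, 88, or 56.8%, were so in both, against 41.1% for all genes. At an FPKM of at least 100 in either library, 32 of 42, or 76.2%, were at 1 or more in both, against 66.7% for all genes. Snap25 and Syt11 were detected in both libraries of all 8 cells, with a median size of difference of 1.12 and 0.72 log2 units. Napa differed more, by a median of 2.61: in the Mature Neuron cell D251 it was 6.66 FPKM in the first and 157 FPKM in the second library, and in D243 214 and 4.93 FPKM. The largest difference of Snap25 was 6.30 log2 units, in the Early Immature Neuron cell D187, with 1.12 FPKM and then 166 FPKM. That of Syt11 was 2.39. Syn1 was detected in either library of 3 cells and in both of 0. A gene missing from 1 cell may thus be missing from 1 library only. The leading paralog was the same in both libraries in 6 of 6 cells for Vamp1 and Vamp2, 6 of 7 for Napa and Napb and 6 of 8 for the synaptotagmins, but in 1 of 6 for Bsn and Pclo. Only 1 repeat cell held both Vamp genes and 3 held both Napa and Napb, and for the transporters and complexins no repeat cell held both.

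A few cells went against the order of the stages. The Progenitor cell D170 held Vamp1 at 122, Syt1 at 91.1 and Slc17a6 at 92.8 FPKM, each the only Progenitor value at 1 or more, while its Snap25 was 0. The Precursor cell D178 held Snap25 at 154 and Rab3a at 253.9 FPKM, the highest of its stage. Both are among the cells numbered D168 to D205. Without D170, Slc17a6 was 1.67 higher in Precursor than in Progenitor cells.

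Within Early Immature Neuron cells, a few of the 14 members present in 50% or more of the cells lined up with Omp or with Gap43. Gap43 itself fell after this stage, with mean log2 levels of 7.54 here, 1.64 in Late Immature and 0.16 in Mature Neuron cells. Over the 27 cells, Pearson's r of log2(FPKM + 1) with Omp, the marker of mature olfactory neurons, was 0.61 for Syt1, 0.52 for Snap25 and 0.51 for Napa, and between -0.30 (Pclo) and 0.28 (Unc13b) for the other 11, with a median of 0.14 over all 14. With Gap43, a growth cone gene, r was 0.57 for Syt5 and 0.56 for Syt11, and between -0.31 (Syt7) and 0.43 (Bsn) for the other 12, with a median of 0.21. These are descriptions over cells that differ in depth and lie in 3 number ranges. In the 13 Late Immature Neuron cells, r with Omp was 0.28 for Syt1, 0.15 for Snap25 and -0.31 for Napa. In the 25 Mature Neuron cells it was -0.34, 0.43 and 0.34. Over all 85 cells, the genes most like Snap25 were Glb1l2 (r = 0.87), Ctxn3 (0.87) and Jakmip1 (0.86). Those most like Syt11 were Flrt1 (0.68), Gnb1 (0.67) and Nsg1 (0.66), and those most like Napa were Ptp4a3 (0.66), Stom (0.64) and Umodl1 (0.64), among 5870 candidates.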

How the data were processed

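Single cells were sequenced from cDNA primed with oligo(dT) and amplified by PCR, per the labels' protocols. The submitters' processing notes name TopHat2 2.0.14 and Cufflinks 2.2.1, beside CASAVA 1.8.2, Trim Galore and cutadapt 1.2.1, and the build mm10, without settings. The authors deposited FPKM per gene entry and an annotation whose genomic positions (other values) are on mm10. A separate deposited table of odorant receptors was not used. The highest entry was taken per symbol. Depth was recovered from the step of low FPKM values in 2167 single exon genes of 800 to 4000 bp (tolerance 5%, at least 5 genes). Because PCR copies are counted, intervals and limits speak to counting error alone.

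Repeat libraries were set aside, leaving 85 cells. Mean log2(FPKM + 1) was subtracted, first stage from second, for 5 pairs of stages and for all genes reaching 1 FPKM in 50% or more of the cells of one side; a size of 1 was called. This scale understates differences of low genes. With 1 sample a stage, no p-value was computed. The members and lists were chosen with earlier results of these data known. Named genes were all members, up to 4 genes of each other list with the largest difference from Progenitor to Mature Neuron cells, the 3 genes most like each of the 3 members highest in Mature Neuron cells, and stage landmarks; the sets of genes found together in a cell and the cells named were chosen after their values were seen. Alternatives were another pseudocount, medians, no filter, rescaled values, number ranges, cells left out, repeat means, summed entries and other detection limits. The procedure was tested on simulated normal values raised well above the detection limit, with planted shifts larger than the size called. Such values lack the many zeros of these cells, so that test does not speak to calls of genes near the detection limit. Python 3.11.15, numpy 2.4.6, pandas 2.3.3 and scipy 1.17.1 were used.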

Additional observations from a re-analysis of the deposited data

Results flagged for a closer look

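In 12 of the 33 genes, 1 of the 9 Precursor cells lay far above the others on the log2(FPKM + 1) scale, by the gap to the next cell over the whole range; chance alone flags about 1 in 20 groups of normal values, and only this stage was small enough to be tested. Of all 14585 genes above 0 in some Precursor cell, 44% were so marked, and 68.6% of those detected in 0 to 2 of the 9 cells, as 11 of the 12 members were. The cell D178 accounted for 6 of them: Rab3a at 253.9 FPKM (next cell 1.207), Cplx1 at 35.3 (next 0), Rims2 at 26.2 (next 0.388), Napb at 12.3 (next 0.0332), Syn1 at 8.57 (next 0.184) and Rims1 at 5.71 (next 0.0242). D195 held Rab3b at 129 FPKM (next 1.195) and Bsn at 6.83 (next 0.0584). D398 held Syn3 at 8.05 FPKM (next 0.214) and Syn2 at 0.661 (next 0.176), the latter under the level counted as detected. Syt1 was at 51.8 FPKM in D319 (next 3.08) and Vamp1 at 13.1 in D345 (next 1.79).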

How the results depend on the processing

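Over differences of members between 2 stages, 85 in all, no called value changed sign with a pseudocount of 0.1 or 10, medians, no filter, rescaled values, repeat means or summed entries, nor without cells high in Cbr2 or Cyp2g1, where calls were nevertheless lost (Vamp1 -0.72, Vamp2 -0.85 and Syn2 -0.26 from Late Immature to Mature Neuron). Signs changed for Syt5 from Progenitor to Precursor cells (-1.03 within D316 to D434, -1.04 without cells high in S100a9), Unc13b from Progenitor to Mature Neuron cells (0.14 within D316 to D434) and, in alternatives chosen after seeing the data, Rab3b from Progenitor to Precursor (0.28 within D168 to D205), Vamp1 (0.58), Syt5 (0.75) and Rab3b (1.29) from Late Immature to Mature Neuron (within D213 to D274) and Pclo from Progenitor to Mature Neuron (-0.69, protein-coding entry). The cause was not tested. Counts of members moved as follows.

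A pseudocount of 10 shrinks low values by construction. Progenitor to Precursor then gave 0 of 11 higher and 0 lower, beside 6.23% and 5.3% of all genes tested. Precursor to Early Immature Neuron gave 6 of 16 and 0, beside 11.2% and 9.89%. Early to Late Immature Neuron gave 7 of 23 and 1, beside 13.2% and 6.71%. Late Immature to Mature Neuron gave 1 of 21 lower, beside 8.45%. Progenitor to Mature Neuron gave 0 of 14 lower, beside 21.8%. With 0.1, Late Immature to Mature Neuron gave 1 of 21 higher, beside 5.89%. Medians gave 4 of 23 lower from Early to Late Immature Neuron, beside 22.8%. Without the filter, 18 of 33 were higher from Progenitor to Mature Neuron, beside 5.7%. Rescaled values gave 2 of 12 lower there, beside 57.3%. Within D316 to D434, Progenitor to Precursor gave 1 of 11 higher and 5 lower, beside 20.5% and 37.2%. Precursor to Early Immature Neuron gave 0 of 13 lower, beside 33%. Late Immature to Mature Neuron gave 5 of 25 higher, beside 25.2%, and Progenitor to Mature Neuron 17 of 23, beside 38%. In that range, 10 members were in at least 50% of Progenitor, 5 of Precursor and 23 of Mature Neuron cells. The shares of all genes were 12.9%, 9.79% and 14.5%. Onset there counted 10 members in Progenitor and 1 in Precursor. Repeat means gave 0 of 16 lower from Precursor to Early Immature Neuron, beside 26.1%. From Progenitor to Mature Neuron they gave 0 of 15 lower, beside 44.8%. Without cells high in S100a9, Progenitor to Precursor gave 3 of 15 higher and 5 lower, beside 19.8% and 34.8%. Precursor to Early Immature Neuron gave 0 of 16 lower, beside 27.8%, and Progenitor to Mature Neuron 2 of 17 lower, beside 53%. Progenitor detection gave 10, beside 12.9% of all genes. Without cells high in Cbr2 or Cyp2g1, Precursor to Early Immature Neuron gave 0 of 16 lower, beside 31.1%. Within D168 to D205, Progenitor to Precursor gave 0 of 13 lower, beside 20.2%. Precursor to Early Immature Neuron gave 3 of 20 lower there, beside 37%. Within D213 to D274, Late Immature to Mature Neuron gave 2 of 20 higher, beside 11.9%.

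At an FPKM of at least 5, 2 members were in 50% of Progenitor and 3 in 50% of Precursor cells, beside 7.44% and 7.33% of all genes. At 10, the counts were 1, 2, 7 and 8 in Progenitor, Precursor, Early Immature and Mature Neuron cells, beside 5.91%, 5.96%, 5.16% and 3.64%. Onset in Progenitor, Precursor and no stage counted 13, 4 and 6 members at 25% of cells; at 75% it was 0, 1, 3 (Early Immature Neuron) and 19 (none). At an FPKM of 5, onset was 2 in Progenitor, 2 in Precursor and 1 in Mature Neuron, and at 10 it was 1, 2 and 17 (none). The same stage of onset was kept by 18, 12, 19 and 17 of 33 members for 25%, 75%, FPKM 5 and FPKM 10, and by 21 within D316 to D434.

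Leaving out 1 cell at a time gave 4 to 7 higher and 1 lower (Progenitor to Precursor), 11 to 12 and 0 to 1 (Precursor to Early Immature Neuron), 12 to 14 and 2 to 3 (Early to Late Immature Neuron), 0 to 1 and 4 to 10 (Late Immature to Mature Neuron), 11 to 13 and 0 to 2 (Progenitor to Mature Neuron), and 4 to 6, 10, 14 to 16, 21 to 24 and 13 to 14 members in 50% of cells by stage. No paired analysis was possible because each library is 1 cell and the numbers in the cell names are not shared between stages. Low depth limits absences: 3 fragments in a 1 kb transcript stand for an FPKM above 1 in the shallowest libraries.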
